A study of Mus musculus with 6 samples.

Results

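The nucleolar ribosome biogenesis genes encode the machinery that makes ribosomes. They were chosen as a list of 54 named genes, and each was read from its brightest probe set, by mean value on all 6 arrays, among those annotated to that gene alone. Of the 54 genes 50 were measured, out of 17097 genes in all. Mybbp1a, Gnl3, Gtpbp4 and Tsr1 had no such probe set here, and the 1 probe set that names Tsr1 also names a second gene. Of the 50, 46 had a mean above the median of all genes and 4 (Ncl, Polr1b, Wdr75 and Nle1) lay under it, and no filter on low values was applied.

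Total RNA was taken from the liver remnant 12 h after removal of 70% of the liver (partial hepatectomy). The animals set against controls were 3 C57Bl/6 mice labelled DeltaKlf6, in which Klf6, a zinc-finger transcription factor, is knocked out in hepatocytes, and the controls were 3 C57Bl/6 mice labelled wildtype. All 6 animals had the operation, and no unoperated liver was analysed here. The sources used here give neither age nor the promoter that restricts the knockout to hepatocytes, and other liver cells keep the gene by the stated design. Each animal gave 1 one-colour Affymetrix array, from an overall study of 6 animals per group. Values are log2 expression values, so a difference of 1 is 2-fold, and differences are DeltaKlf6 minus wildtype.

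A ribosome starts in the nucleolus, where RNA polymerase I transcribes the ribosomal RNA precursor. Small nucleolar ribonucleoproteins (snoRNPs) then mark it by methylation (box C/D) and pseudouridylation (box H/ACA), the small-subunit processome folds and cuts the part that becomes the 40S subunit, and a separate set of assembly factors builds the 60S subunit. These genes are widely induced when cells grow, Myc being their best known activator, and the liver remnant enlarges its hepatocytes and raises ribosome production before it replicates DNA.

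The Klf6 values did not bear out the knockout label in every array. Its 3 probe sets were at 7.03, 5.88 and 5.81 in the array labelled DeltaKlf6 1, at 4.61, 4.12 and 2.82 in DeltaKlf6 2 and at 3.15, 3.74 and 2.83 in DeltaKlf6 3. In wildtype they ranged from 4.43 to 5.20, from 3.73 to 4.44 and from 3.41 to 4.03. DeltaKlf6 1 was above every wildtype array on all 3 probe sets, DeltaKlf6 2 was within the wildtype range on the 2 brighter ones and below it on the dimmest, and DeltaKlf6 3 was below it on the brightest and the dimmest. All directions below are therefore between arrays as labelled, and whether the Klf6 probes fall inside the deleted exons could not be checked. DeltaKlf6 3 stood apart in its brighter probe sets, with upper quartiles of 5.53, 5.63 and 5.08 on DeltaKlf6 arrays 1, 2 and 3 and of 5.50 to 5.51 on the wildtype arrays. The actin control's 3′ probe set exceeded its 5′ probe set by 4.22, 3.998 and 5.05 on DeltaKlf6 arrays 1, 2 and 3 (log2), and by 4.86 to 5.39 on the wildtype arrays. The hepatocyte markers Alb, Ttr, Apoa1 and 8 others summed to 15.57 to 15.84 on the log2 scale in DeltaKlf6 and 15.65 to 15.70 in wildtype. The Kupffer cell and macrophage list of 13 genes summed to 11.82 to 12.43 in DeltaKlf6 and 11.65 to 11.86 in wildtype, with 9 of 13 higher by group mean. The 10 sinusoidal endothelial markers summed to 10.98 to 11.09 in DeltaKlf6 and 11.11 to 11.22 in wildtype, with 3 of 10 higher. By group mean 7 of 11 hepatocyte, 5 of 9 stellate cell and 4 of 5 cholangiocyte markers were higher. So were 3 of 8 neutrophil, 4 of 9 lymphocyte and 3 of 3 erythroid markers. In limma 0 markers passed the adjusted threshold. Those at an unadjusted p under 0.05 (background 3.69% of all genes) were 2 Kupffer cell and macrophage markers and 1 endothelial marker. Cd163 was lower (difference -1.17) and Mpeg1 higher (0.58) among the former, and the endothelial Kdr was lower (-0.87). The part of cell makeup in the results below was not tested.

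The promoters of the 54 listed genes, measured or not, were searched for short motifs. RefSeq promoters (build GRCm38.p6, 250 bases before to 50 after the start site) were found for 49 of the 54 genes. Npm1, Fbl, Rrp12, Bop1 and Rrs1 had no entry. The canonical E-box, the hexamer CACGTG bound by Myc with its partner Max and by related factors, was in the promoter of 11 of 49 (22.4%), against 8.09% of all 27025 genes with a promoter and 10.2% of the 13605 that are on the array. The hexamer is its own reverse complement, so both strands were covered. Because Myc is the known activator of this group, these sites are shown. The windows that hold an E-box before the start site, or within the first bases after it in Pes1, follow with the hexamer in capitals.
Imp4 (chr1:34439678-34439743, plus strand): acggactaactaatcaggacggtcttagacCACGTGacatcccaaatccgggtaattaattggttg
Nop2 (chr6:125131793-125131858, plus strand): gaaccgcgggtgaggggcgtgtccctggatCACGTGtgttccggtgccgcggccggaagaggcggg
Pes1 (chr11:3963947-3963982, plus strand): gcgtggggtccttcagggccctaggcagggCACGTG
Utp18 (chr11:93885767-93885816, minus strand): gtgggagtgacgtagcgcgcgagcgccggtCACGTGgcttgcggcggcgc
Rrn3 (chr16:13780454-13780519, plus strand): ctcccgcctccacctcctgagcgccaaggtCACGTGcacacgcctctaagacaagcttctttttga
Rrn3 (chr16:13780621-13780686, plus strand): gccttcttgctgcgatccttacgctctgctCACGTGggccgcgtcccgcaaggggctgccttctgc
The E-boxes in Ltv1, Nle1, Utp20, Wdr43, Mybbp1a and Tsr1 lay within the 50 bases after the start site and are not shown. Rrn3 held its hexamer at 2 places.

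The GC box GGGCGG, bound by Sp and Klf factors, was found on either strand in 36 of 49 promoters (73.5%), against 38.2% of all genes and 57.3% of those on the array. The shorter CACCC element, which Klf factors also bind and which can share bases with a GC box, was in 59.2%, against 59.8% and 66.2%. The 250 bases before the start site are given for Nop58 and Polr1e, which stood farthest above wildtype in DeltaKlf6 1, for Ddx18, whose 3 probe sets were all higher, and for Ncl, whose groups did not overlap. Capitals mark GC boxes on either strand.
Polr1e (chr4:45018359-45018608, plus strand): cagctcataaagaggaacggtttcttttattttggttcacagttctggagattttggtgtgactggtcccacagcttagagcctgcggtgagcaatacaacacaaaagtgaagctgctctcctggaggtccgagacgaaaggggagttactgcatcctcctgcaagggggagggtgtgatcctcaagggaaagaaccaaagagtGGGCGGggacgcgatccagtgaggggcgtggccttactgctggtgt
Nop58 (chr1:59684756-59685005, plus strand): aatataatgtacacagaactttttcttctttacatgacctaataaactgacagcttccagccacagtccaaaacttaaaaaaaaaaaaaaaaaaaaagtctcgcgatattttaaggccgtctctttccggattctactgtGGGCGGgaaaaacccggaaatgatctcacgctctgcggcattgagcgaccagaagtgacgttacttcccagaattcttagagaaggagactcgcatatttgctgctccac
Ddx18 (chr1:121567981-121568230, minus strand): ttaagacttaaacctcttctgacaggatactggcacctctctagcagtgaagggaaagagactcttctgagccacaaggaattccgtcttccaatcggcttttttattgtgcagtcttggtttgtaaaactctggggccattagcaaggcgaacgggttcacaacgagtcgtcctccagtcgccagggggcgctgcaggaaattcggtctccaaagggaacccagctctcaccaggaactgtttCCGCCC
Ncl (chr1:86359456-86359705, minus strand): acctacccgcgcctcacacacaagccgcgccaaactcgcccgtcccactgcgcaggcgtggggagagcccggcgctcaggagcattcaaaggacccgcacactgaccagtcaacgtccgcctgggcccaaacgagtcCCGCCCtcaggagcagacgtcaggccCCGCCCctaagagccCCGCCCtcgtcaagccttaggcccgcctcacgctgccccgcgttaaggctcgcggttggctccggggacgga
A match describes the letters, and binding was not measured.

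No nucleolar gene passed the test of DeltaKlf6 against wildtype. With limma and Benjamini-Hochberg adjustment over all 17097 genes, 0 of 50 passed an adjusted p of 0.05 (background 0% of all genes), and each had an adjusted p of 0.992 or above. At an unadjusted p under 0.05 there were also 0 of 50, where the background was 3.69% of all genes (1.21% higher and 2.48% lower). By group mean 32 of the 50 were higher in DeltaKlf6 and 18 lower, against 48.4% of all genes higher. Differences ran from -0.52 to 0.70 with a median of 0.13, and the median over all genes was -0.01. The groups did not overlap for 3 of the 50, all lower in DeltaKlf6, namely Bysl, Rrs1 and Ncl. The background was 9.32% of all genes in either direction and 5.91% on the lower side, so the share of 3 in 50 lay near it. In whole liver, fewer cells of a type and less RNA per cell cannot be told apart.

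The fit left room for differences of moderate size. The standard error of a difference ranged from 0.19 to 0.67, with a median of 0.28, and the 95% interval lay within 2-fold in either direction for 30 of the 50 genes. For the other 20 a change of 2-fold or more was within the interval. A p above the threshold does not show that the livers were alike in these genes.

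**Figure D1:**
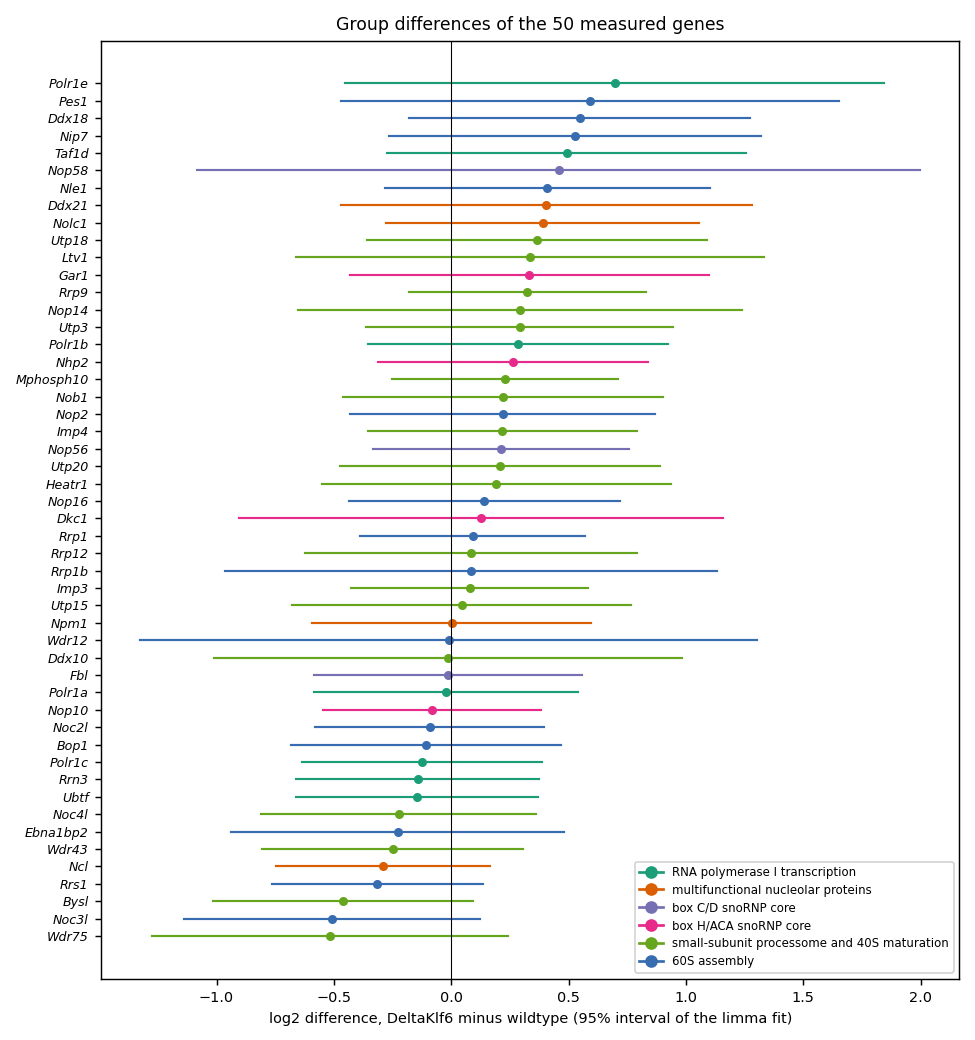
Log2 difference, DeltaKlf6 minus wildtype (points, x axis), with the 95% interval of the limma fit (lines) for each of the 50 measured genes (rows), coloured by role. Differences run from -0.52 (Wdr75) to 0.70 (Polr1e), and every interval includes 0.

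The 3 DeltaKlf6 arrays stood differently to wildtype in these genes. In DeltaKlf6 1, 33 of the 50 genes (66%) lay above all 3 wildtype arrays, where the background was 29.0% of all genes and 34.2% of genes over the median level. In DeltaKlf6 2 the count was 14 (28%, background 28.0% of all genes and 36.2% of genes over the median level). In DeltaKlf6 3 it was 8 (16%, background 27.2% of all genes and 14.3% of genes over the median level), near that of genes of like level. Below all wildtype arrays lay 8 genes in DeltaKlf6 1 (background 30.9%), 14 in DeltaKlf6 2 (background 27.6%) and 21 in DeltaKlf6 3 (42%, background 35.1%). Of genes over the median level 34.3%, 25.6% and 50.2% were below the wildtype range in DeltaKlf6 1, 2 and 3. With the arrays quantile-normalized again the count below it in DeltaKlf6 3 was 10 (20%), against 30.8% of all genes and 31.6% of genes over the median level, so the count of 21 depended on the scaling. DeltaKlf6 3 was the lowest of the 6 arrays for 17 of the 50 (34%, background 25.6% of all genes and 37.8% of genes over the median level).

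**Figure D2:**
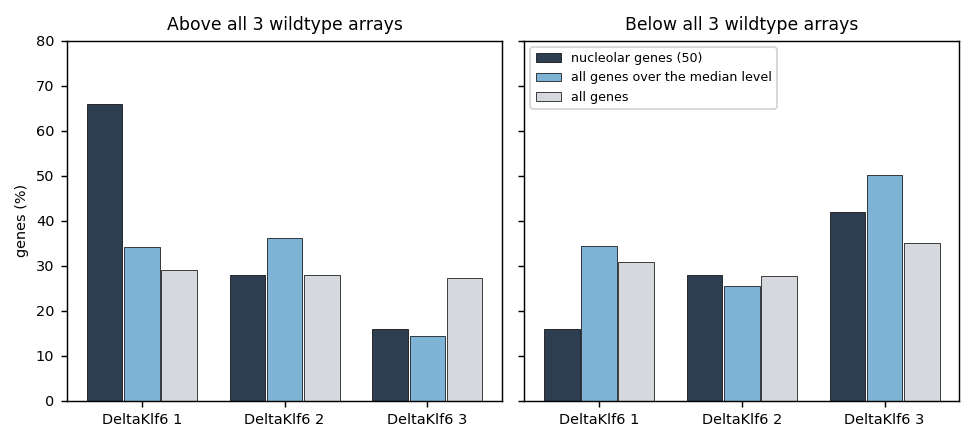
Percentage of genes (y axis) above all 3 wildtype arrays (left panel) or below all 3 (right panel) in each DeltaKlf6 array (x axis), for the 50 nucleolar genes, for all genes over the median level and for all genes. The nucleolar bar stands at 66% above the wildtype range in DeltaKlf6 1, against 29.0% of all genes.

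The mean over the 50 genes, each set against its own wildtype mean, was 0.50 in DeltaKlf6 1, 0.03 in DeltaKlf6 2 and -0.19 in DeltaKlf6 3, against -0.12, 0.07 and 0.04 in wildtype 1, 2 and 3. One DeltaKlf6 array was thus above and another below the wildtype arrays. With the arrays quantile-normalized again the means were 0.49, -0.07 and 0.10 in DeltaKlf6 1, 2 and 3, and with the arrays centred on their medians 0.56, -0.12 and -0.08, so the sign in DeltaKlf6 2 and 3 depended on the scaling. Without DeltaKlf6 1 the median difference over the genes was -0.05 and 21 of 50 were higher. For 39 of the 50 genes (78%) the SD was larger among the DeltaKlf6 arrays than among the wildtype arrays, near the background of 68.1% of all genes and 76.1% of genes over the median level. The median SDs were 0.39 in DeltaKlf6 and 0.22 in wildtype, beside 0.44 and 0.25 for genes over the median level and 0.35 and 0.24 for all genes. The 40 further probe sets of these genes, not used for the gene values and hybridized to the same RNA, had medians of 0.57, 0.14 and -0.46 relative to wildtype in DeltaKlf6 1, 2 and 3, and 28 of 40 lay above the wildtype mean in DeltaKlf6 1. By group mean 22 of the 40 were higher, and for 14 of the 30 genes with more than 1 probe set the signs disagreed.

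**Figure D3:**
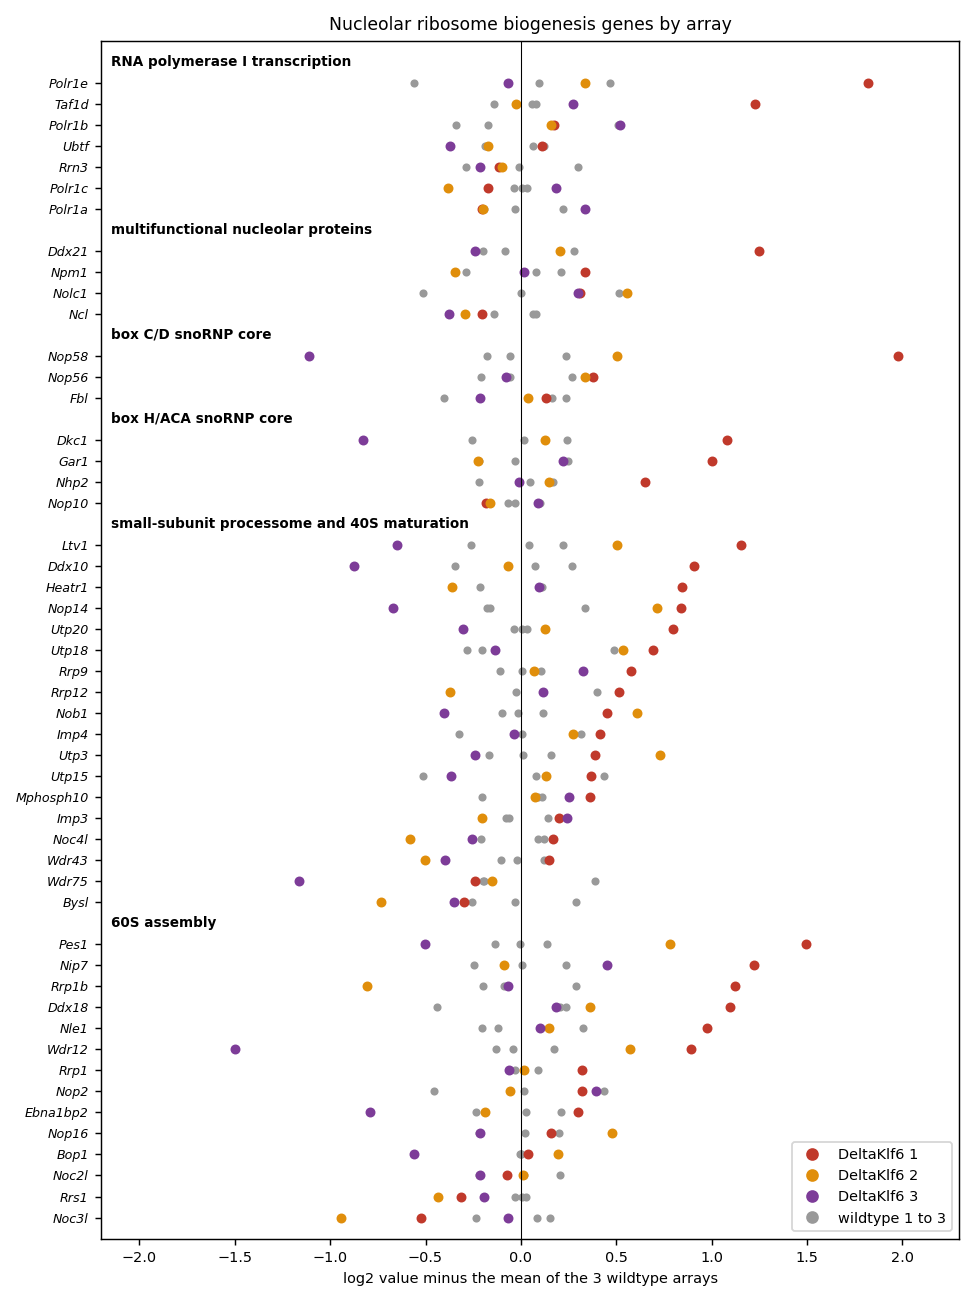
Log2 value minus the mean of the 3 wildtype arrays (x axis) for each measured gene (rows, grouped by role), with DeltaKlf6 1, 2 and 3 in colour and the wildtype arrays in grey. DeltaKlf6 1 lies above all wildtype arrays for 33 of 50 genes and DeltaKlf6 3 below all of them for 21 as deposited, or for 10 with quantile normalization.

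RNA polymerase I genes were split, with 3 of 7 higher by group mean, a median difference of -0.02 (0.069 without DeltaKlf6 1) and 0 past the test. In DeltaKlf6 1, 2 of the 7 (28.6%) lay above all wildtype arrays, near the background of 29.0% of all genes. In DeltaKlf6 3, 4 of the 7 (57.1%) did so at the deposited scaling, with a background of 27.2% of all genes. Polr1e, a subunit that takes part in initiation, had the largest difference of all 50 genes. It was at 6.54, 5.05 and 4.65 in DeltaKlf6 1, 2 and 3 and at 4.16, 5.19 and 4.81 in wildtype (difference 0.70, SE 0.50, adjusted p = 0.992 in limma). Only DeltaKlf6 1 lay above the wildtype arrays, and the other DeltaKlf6 arrays were within their range.

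Taf1d, a subunit of the promoter selectivity complex, was at 6.72, 5.46 and 5.76 in DeltaKlf6, against 5.35, 5.57 and 5.55 in wildtype (difference 0.49, SE 0.33). DeltaKlf6 1 and 3 lay above all wildtype arrays and DeltaKlf6 2 within their range. Its 7 probe sets disagreed, 3 of them higher and 4 lower. A dimmer one, pointed out after its value was seen, was at 2.70, 2.78 and 2.65 in DeltaKlf6 and 3.37, 3.59 and 3.74 in wildtype (difference -0.86). Among 90 probe sets of the 50 genes tested on their own it was the 1 with an unadjusted p under 0.05, and 0 passed the adjusted threshold.

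The initiation factors gave small differences. Ubtf, which binds the ribosomal DNA and keeps it open, was at 7.92, 7.64 and 7.44 in DeltaKlf6 and 7.88, 7.62 and 7.94 in wildtype (difference -0.14, 95% interval -0.66 to 0.37). Rrn3, which couples the polymerase to its promoter in response to growth signals, was at 5.79, 5.81 and 5.69 in DeltaKlf6 and 5.62, 5.90 and 6.21 in wildtype (difference -0.14, 95% interval -0.66 to 0.37). The groups overlapped for both, and these intervals excluded a 2-fold change.

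Polr1a, Polr1b and Polr1c each overlapped between the groups. Polr1b, the second largest subunit, averaged 4.23 ± 0.21 in DeltaKlf6 and 3.95 ± 0.45 in wildtype (mean ± SD, n = 3 each). Polr1a, the largest, differed by -0.02 on its brightest probe set and by -0.58 and -0.27 on dimmer ones. Polr1c, shared with RNA polymerase III, differed by -0.12 on its brightest probe set and by 0.32 on the other.

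Among the multifunctional nucleolar proteins 3 of 4 were higher, with a median difference of 0.20 (-0.091 without DeltaKlf6 1). Npm1, an abundant chaperone that organizes the nucleolus, was at 10.002, 9.32 and 9.68 in DeltaKlf6 and 9.38, 9.88 and 9.75 in wildtype (difference 0.00, 95% interval -0.59 to 0.59). The groups overlapped fully, and its probe set is of a type shared between transcripts. A dimmer Npm1 probe set differed by 0.29. Ncl, which encodes nucleolin, was at 2.64, 2.55 and 2.47 in DeltaKlf6 and 2.91, 2.92 and 2.70 in wildtype (difference -0.29, SE 0.20). The groups did not overlap, and all 6 values lay under the array medians of 3.30 to 3.45, for a transcript known to be abundant.

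Ddx21, an RNA helicase that acts on the ribosomal RNA precursor, was at 7.29, 6.25 and 5.80 in DeltaKlf6 and 5.84, 6.32 and 5.96 in wildtype (difference 0.40, SE 0.38). Nolc1, a chaperone of snoRNPs, was at 6.41, 6.66 and 6.40 in DeltaKlf6 and 5.59, 6.10 and 6.61 in wildtype (difference 0.39, SE 0.29). Ddx21 was high in DeltaKlf6 1, whereas the Nolc1 values were alike in all 3 DeltaKlf6 arrays and within or just above the wildtype spread. Both genes had a further probe set with a negative difference.

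Of the 3 box C/D core genes 2 were higher by group mean, with a median of 0.21 (-0.088 without DeltaKlf6 1). Nop58, a scaffold of the particle, was at 8.21, 6.73 and 5.12 in DeltaKlf6 and 6.17, 6.05 and 6.46 in wildtype (difference 0.46, SE 0.67). DeltaKlf6 1 and 2 lay above all wildtype arrays and DeltaKlf6 3 below them, by 1.98, 0.50 and -1.11 relative to the wildtype mean. Its partner Nop56 was at 7.48, 7.44 and 7.02 in DeltaKlf6 and 6.89, 7.37 and 7.04 in wildtype (difference 0.21, SE 0.24). Fbl, the methyltransferase fibrillarin, was at 8.59, 8.49 and 8.24 in DeltaKlf6 and 8.05, 8.62 and 8.69 in wildtype (difference -0.01, 95% interval -0.59 to 0.56). A dimmer Fbl probe set differed by 0.38, so its sign rests on the probe set.

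In the box H/ACA core 3 of 4 genes were higher by group mean, with a median of 0.19 (-0.018 without DeltaKlf6 1). Dkc1, the pseudouridine synthase dyskerin, was at 8.50, 7.55 and 6.59 in DeltaKlf6 and 7.16, 7.66 and 7.43 in wildtype (difference 0.13, SE 0.45). As for Nop58, DeltaKlf6 1 lay above and DeltaKlf6 3 below every wildtype array, and this held for 16 of the 50 genes (32%, background 11.0% of all genes and 17.6% of genes over the median level) at the deposited scaling. Gar1, a core protein of the same particle, was at 8.15, 6.92 and 7.37 in DeltaKlf6 and 6.93, 7.40 and 7.12 in wildtype (difference 0.33, SE 0.33). Nhp2, which binds the guide RNA of the particle, was at 10.16, 9.66 and 9.50 in DeltaKlf6 and 9.29, 9.68 and 9.56 in wildtype (difference 0.26). Nop10, the smallest core protein, differed by -0.08 (95% interval -0.55 to 0.38) on its brightest probe set and by 0.69 on the other.

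Of the 18 measured genes of the small-subunit processome and 40S maturation 13 were higher by group mean, with a median of 0.20 (-0.080 without DeltaKlf6 1) and 0 past the test. In DeltaKlf6 1, 15 of the 18 (83.3%) lay above all wildtype arrays, with a background of 29.0% of all genes and 34.2% of genes over the median level. In DeltaKlf6 3, 10 (55.6%) lay below them at the deposited scaling. The background there was 35.1% of all genes and 50.2% of genes over the median level, so this share lay near that of genes of like level. Bysl, an assembly factor of the 40S precursor, had the smallest unadjusted p of all 50 genes, at 0.0901. It was at 7.72, 7.28 and 7.67 in DeltaKlf6 and 7.99, 7.76 and 8.31 in wildtype (difference -0.46, SE 0.24, adjusted p = 0.992 in limma). Every DeltaKlf6 array lay below every wildtype array, the nearest by a small margin, and both Bysl probe sets were lower.

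Wdr75, of the subcomplex that joins the precursor first, had the lowest difference of all (-0.52, SE 0.33), from values under the median of all genes. It was at 3.25, 3.34 and 2.32 in DeltaKlf6, against 3.88, 3.29 and 3.29 in wildtype. Wdr43, of the same subcomplex, differed by -0.25 on 1 probe set and by 0.23 on the other. Noc4l likewise differed by -0.22 on its brightest probe set and was higher on the other 2.

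Utp18 had the largest difference on the higher side among the small-subunit genes, at 7.61, 7.46 and 6.78 in DeltaKlf6 and 6.71, 7.40 and 6.64 in wildtype (difference 0.37, SE 0.31). The groups overlapped through wildtype 2, and a dimmer Utp18 probe set differed by -0.16. Ltv1, a late 40S export and maturation factor, was at 7.45, 6.80 and 5.64 in DeltaKlf6 and 6.03, 6.33 and 6.52 in wildtype (difference 0.34, SE 0.43). Heatr1, needed for early processing, was at 8.35, 7.14 and 7.60 in DeltaKlf6 and 7.60, 7.29 and 7.62 in wildtype (difference 0.19). Dimmer Heatr1 probe sets differed by 0.37 and -0.18. Imp4, a component of the processome that binds the U3 snoRNA, differed by 0.22 on its brightest probe set and by -0.21 on a dimmer one. DeltaKlf6 1 was the highest array for Ltv1 and Heatr1.

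Nob1, the nuclease that finishes the small-subunit RNA, was at 6.70, 6.86 and 5.84 in DeltaKlf6 and 6.15, 6.36 and 6.23 in wildtype (difference 0.22). Nop14, which holds the processome together, was at 5.46, 5.34 and 3.95 in DeltaKlf6 and 4.45, 4.96 and 4.46 in wildtype (difference 0.29). Utp20, a very large scaffold protein, was at 7.70, 7.03 and 6.60 in DeltaKlf6 and 6.93, 6.87 and 6.91 in wildtype (difference 0.21). In all 3 genes DeltaKlf6 1 and 2 lay above and DeltaKlf6 3 below every wildtype array. Rrp9, a U3 snoRNP protein, was at 6.54, 6.03 and 6.29 in DeltaKlf6 and 5.97, 6.07 and 5.85 in wildtype (difference 0.32), with only DeltaKlf6 2 inside the wildtype range. Utp3 differed by 0.29, Mphosph10 by 0.23, Rrp12 by 0.09, Imp3 by 0.08, Utp15 by 0.05 and the helicase Ddx10 by -0.01.

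Of the 14 measured 60S assembly genes 8 were higher and 6 lower by group mean, with a median of 0.09 (-0.063 without DeltaKlf6 1). Pes1, Bop1 and Wdr12 form 1 complex that acts on the 60S precursor. Pes1 was at 7.88, 7.17 and 5.88 in DeltaKlf6 and 6.25, 6.52 and 6.38 in wildtype (difference 0.59, SE 0.46). Wdr12 was at 7.02, 6.69 and 4.62 in DeltaKlf6 and 6.08, 6.30 and 5.99 in wildtype (difference -0.01, SE 0.57). Bop1 was at 6.31, 6.47 and 5.72 in DeltaKlf6 and at 6.27, 6.28 and 6.28 in wildtype (difference -0.11, 95% interval -0.68 to 0.47). For all 3 genes DeltaKlf6 1 and 2 lay above and DeltaKlf6 3 below every wildtype array, in Bop1 by a small margin for DeltaKlf6 1. Their group differences were not tested against each other.

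Rrs1, needed to bring the RNA of the 60S subunit's central protuberance into the precursor, was at 9.10, 8.98 and 9.22 in DeltaKlf6 and 9.38, 9.44 and 9.42 in wildtype (difference -0.31, SE 0.19). The groups did not overlap, and both probe sets were lower. The brighter one has the suffix x, and the other differed by -0.28. Noc3l, which helps move 60S precursors through the nucleus, was at 4.76, 4.34 and 5.22 in DeltaKlf6 and 5.37, 5.43 and 5.05 in wildtype (difference -0.51, SE 0.27). A dimmer probe set of Noc3l differed by 0.15.

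On the higher side, Ddx18, an RNA helicase of early 60S particles, was at 8.07, 7.34 and 7.16 in DeltaKlf6 and 6.54, 7.21 and 7.18 in wildtype (difference 0.55, SE 0.31). All 3 of its probe sets were higher. Nip7, a processing factor, was at 9.26, 7.95 and 8.49 in DeltaKlf6 and 7.80, 8.28 and 8.05 in wildtype (difference 0.53, SE 0.34). DeltaKlf6 1 was the highest array for both, as for 29 of the 50 genes (58%, background 19.3% of all genes and 24.8% of genes over the median level). Rrp1b was at 6.48, 4.55 and 5.29 in DeltaKlf6 and 5.27, 5.16 and 5.65 in wildtype (difference 0.08), with DeltaKlf6 1 above and DeltaKlf6 2 below the wildtype arrays. A dimmer Rrp1b probe set differed by 0.62. Nle1 (0.41), the RNA methyltransferase Nop2 (0.22), Nop16 (0.14) and Rrp1 (0.09) were higher by group mean, and Ebna1bp2 (-0.23) and Noc2l (-0.09) lower. Nop16 and Ebna1bp2 each had a probe set of the opposite sign.

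Leaving out DeltaKlf6 3, the array with the low upper quartile, brought 8 of the 50 genes to an unadjusted p under 0.05, where the background of that fit was 9.04% of all genes. Pes1 (difference 1.14), Nop58 (1.24), Ltv1 (0.83), Nop14 (0.78), Wdr12 (0.73), Utp3 (0.56) and Nob1 (0.53) were higher and Noc3l (-0.73) lower. The count on the higher side was 7 of 50, with a background of 5.35%. The smallest adjusted p among them was 0.412 for Pes1, so 0 passed there either.

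The other ribosome biogenesis genes, a list of 98 that shares no gene with the 54, were measured for 85. Of these 52 were higher by group mean (median 0.10), and 0 passed the test. At an unadjusted limma p under 0.05 there were 3 higher and 1 lower of the 85, where the background was 1.21% of all genes higher and 2.48% lower. Their medians relative to wildtype were 0.45, 0.06 and -0.18 in DeltaKlf6 1, 2 and 3, beside 0.37, 0.03 and -0.16 for the 50 nucleolar genes. In DeltaKlf6 1, 54 of 85 (63.5%) lay above all wildtype arrays, where the background was 29.0% of all genes. Taf1a, another subunit of the polymerase I promoter complex, was at 5.33, 4.94 and 4.16 in DeltaKlf6 and 6.04, 5.80 and 6.02 in wildtype (difference -1.14, SE 0.31). Nufip1, a box C/D assembly factor, was at 7.04, 6.04 and 5.94 in DeltaKlf6 and 4.69, 5.39 and 5.41 in wildtype (difference 1.18, SE 0.35). The groups did not overlap for either gene, and neither passed. They were among 5 higher and 3 lower genes of the 85 without overlap, where the background was 3.41% of all genes higher and 5.91% lower. Of the 7 measured subunits of the exosome, which trims ribosomal RNA, 5 were higher by group mean, with differences from -0.17 to 0.79 and a median of 0.18. Exosc10 (0.75, SE 0.29) and Exosc8 (0.79, SE 0.31) had an unadjusted limma p under 0.05 (background 3.69% of all genes). Both belong to the list above and are among its 3 higher genes at that p. In limma 0 of the 7 exosome subunits passed the adjusted threshold.

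Other growth lists had their own medians per array. Of the 48 measured cytosolic ribosomal protein genes 37 were higher by group mean (median 0.12). Their medians relative to wildtype were 0.26, 0.25 and -0.18 in DeltaKlf6 1, 2 and 3. In DeltaKlf6 1, 37 of the 48 (77.1%, background 29.0% of all genes) lay above all wildtype arrays. That share was 66% for the nucleolar genes and 63.6% for the 11 hepatocyte markers. For 25 ribosomal protein genes (52.1%) DeltaKlf6 1 lay above and DeltaKlf6 3 below every wildtype array, beside 32% of the nucleolar genes. Of the 31 DNA replication genes 25 were higher by group mean (median 0.41), with values of 1.16 for Ccne1, 0.96 for Pole and 0.85 for Mcm7. Their medians were -0.25, 1.46 and -0.01 in DeltaKlf6 1, 2 and 3, and thus high in DeltaKlf6 2, where the nucleolar genes stood at 0.03. Of the 19 growth genes outside the nucleolus 12 were higher (median 0.14), such as Ranbp1 (difference 0.83, SE 0.33) and Nme1 (0.45), with medians of -0.01, 0.22 and 0.07. In limma 0 genes of these lists passed the adjusted threshold. At an unadjusted limma p under 0.05 there were 0 of 48 ribosomal protein genes, 2 of 31 replication genes and 1 of 19 growth genes, all higher. The background on that side was 1.21% of all genes. These lists share arrays with the nucleolar genes, so the medians are side by side as values only.

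**Figure D4:**
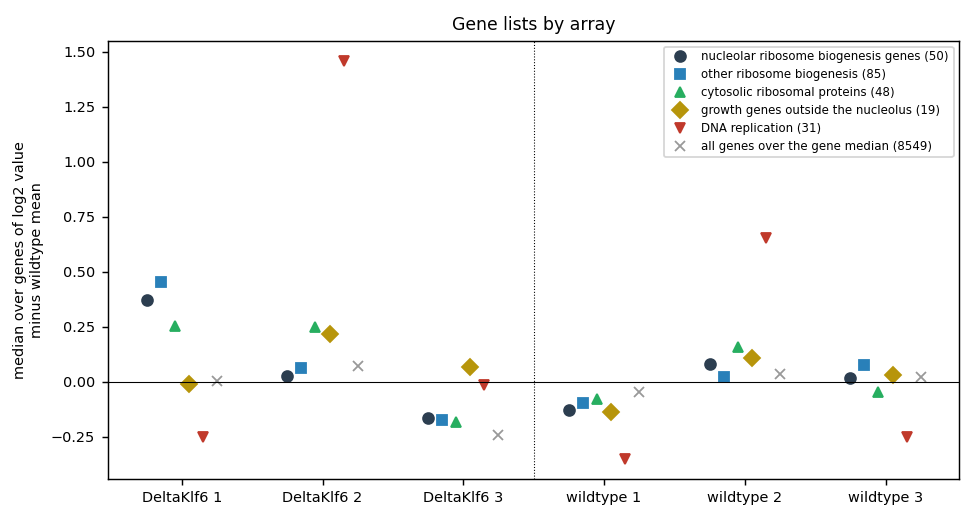
Median over the genes of each list of the log2 value minus the wildtype mean (y axis) in each of the 6 arrays (x axis), DeltaKlf6 left of the dotted line. Nucleolar and other ribosome biogenesis genes are at 0.37 and 0.45 in DeltaKlf6 1, while DNA replication genes are at -0.25 there and at 1.46 in DeltaKlf6 2.

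Myc, the activator named above, was at 6.84, 6.03 and 5.33 in DeltaKlf6 1, 2 and 3 and at 5.46, 5.88 and 5.88 in wildtype (difference 0.33, SE 0.38). It was highest in DeltaKlf6 1 and lowest in DeltaKlf6 3, and at the deposited scaling the mean of the nucleolar genes had the same highest and lowest arrays. With quantile normalization or median centring DeltaKlf6 3 was not the lowest array in that mean. Of the 11 measured genes of the Myc network 0 passed the limma threshold and 0 had an unadjusted p under 0.05. The median difference was 0.09, and those with the smallest unadjusted p were Mxd4 (-0.57, SE 0.30), Mycl (0.68), Mlxip (-0.51) and Mlx (0.23). Among the 9 measured nucleolar genes with an E-box the deviation in DeltaKlf6 1 ran from -0.11 (Rrn3) to 1.496 (Pes1). There 7 of 9 lay above all wildtype arrays, beside 33 of all 50 nucleolar genes. The median of the 9 was 0.69, against 0.37 for the 36 measured genes with a promoter and no E-box, a description of 1 array. For genes with and without a GC box the medians in that array were 0.37 and 0.45. The median group differences were 0.22 with and 0.13 without an E-box, and 0.17 with and 0.22 without a GC box. Klf6 itself was also highest in DeltaKlf6 1, and its part and that of Myc in the level of the nucleolar genes was not tested.

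**Figure D5:**
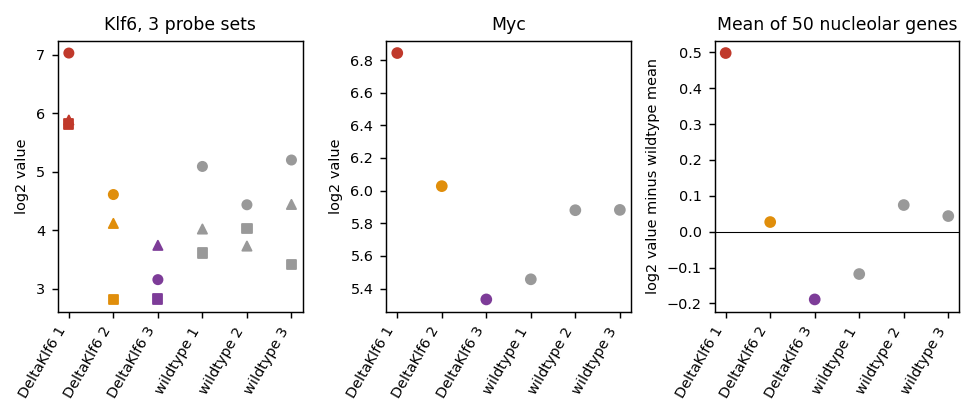
Log2 values of the 3 Klf6 probe sets (left, 1 symbol each, circles for the brightest) and of Myc (middle), and the mean over the 50 nucleolar genes of the log2 value minus the wildtype mean (right), in each array (x axis; DeltaKlf6 in colour, wildtype in grey). DeltaKlf6 1 is the highest array in all panels, with Myc at 6.84 and the mean of the nucleolar genes at 0.50.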

How the data were processed

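Liver RNA of 6 mice (3 DeltaKlf6, 3 wildtype, groups from the sample labels) was hybridized to 1 array each. The authors deposited 1 log2 value per probe set and array, and the submitters' processing notes name RMA and Affymetrix Expression Console (version 1.2.1) as their tools. As generally defined, RMA corrects background, quantile-normalizes the arrays and summarizes each probe set. The 6 deposited arrays did not share 1 distribution, with an upper quartile of 5.08 on DeltaKlf6 3 and of 5.50 to 5.63 on the others. The log base was inferred from the range of 1.49 to 13.9, under the limit of a 16-bit scanner. The genome build is not given in the sources used here. The number of arrays limits the precision.

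Of 45141 probe sets 28898 had 1 gene in the platform annotation, 551 several and 15692 none here. Each gene was represented by its brightest probe set. The group difference was fitted on all 6 arrays by lmFit and eBayes of limma 3.58.1 under R 4.3.3 (two-sided, Benjamini-Hochberg adjustment over all genes), tested on simulated data. Intervals are 95% intervals of that fit. The p-values set each group difference against the spread within the groups. With 1 array per animal, that spread holds differences between animals and between arrays together.

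The 54 genes, the 13 gene lists, the roles and the motifs were chosen with earlier results of these data known. Named are 11 defining genes, the 8 of smallest p, the 3 highest and 3 lowest differences, those with non-overlapping groups or with probe sets of opposite sign, the largest difference per role, and up to 4 genes per list. Other nucleolar genes are given in the description of their role. Alternatives were other probe set rules, a filter on dim genes, other scalings, variance models, the replicate number as a block and each array left out.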

Additional observations from a re-analysis of the deposited data

Results flagged for a closer look

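Of 3 measures from control probe sets outside the gene comparison, 2 stood above every wildtype array in DeltaKlf6 3. The hybridization controls averaged 11.4 there on the log2 scale, and 10.4 to 10.6 on the wildtype arrays. For Gapdh the 3′ control exceeded the 5′ control by 4.83 there, and by 4.06 to 4.43 on the wildtype arrays. DeltaKlf6 1 and 2 were below wildtype in both measures, at 10.2 and 10.1 for the hybridization controls and 3.47 and 3.45 for Gapdh. For actin the same 3′ excess was 5.05 in DeltaKlf6 3, inside the wildtype range of 4.86 to 5.39. Their part in the levels of the nucleolar genes was not tested.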

How the results depend on the processing

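In limma, 0 nucleolar genes and 0 of all genes passed the adjusted threshold under each alternative run. With the replicate block 0 nucleolar genes and 703 of all genes were at an unadjusted p under 0.05, against 631 without it. Same-numbered animals correlated at -0.0049, 0.26 and 0.084 in their deviations from the group means, and differently numbered ones at -0.17 to 0.086. These values do not settle whether animals were paired. The labels do not say that the numbers pair animals, so the main fit did not pair them. Array weights gave 2 of 50 nucleolar genes (4%) at that p, against 909 of all genes (5.32%). With dim genes left out, which tests fewer genes, 331 of 8549 genes were at that p. Every probe set tested on its own, chosen after seeing the data, gave 1066 of 28898 and 1 nucleolar probe set. Shared probe sets here are those with the suffix s, x or a, which gave the values of 15 of the 50 nucleolar genes. Without shared probe sets the median of the polymerase I genes was 0.13. Quantile normalization moved the mean in DeltaKlf6 3 to 0.098 and the count below the wildtype range there to 10 (recomputed after seeing the data). The share above that range in DeltaKlf6 1 was recomputed then too. It ran from 64% (32 of 50, quantile normalization) to 72% (36 of 50, mean of probe sets), with 31 of 44 when shared probe sets were left out. The cause of these shifts was not tested.

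With each array left out in turn, genes at an unadjusted p under 0.05 ranged from 379 (wildtype 3 left out) to 1546 (DeltaKlf6 3 left out), and were 388 when wildtype 1 and 1165 when DeltaKlf6 2 was the array removed. Nucleolar genes at that p ranged from 0 to 8, those higher by group mean from 21 (without DeltaKlf6 1) to 35, and their median difference from -0.053 to 0.25. Medians by role ranged from -0.091 to 0.25 for multifunctional proteins, from -0.088 to 0.36 for box C/D, from -0.018 to 0.39 for box H/ACA, from -0.080 to 0.29 for small-subunit genes, from -0.063 to 0.16 for 60S genes and from -0.11 to 0.089 for polymerase I genes.

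Among the named genes 436 of the recomputed differences kept their sign and 37 turned it. Array weights turned Bop1 (0.0069), Fbl (0.0023), Npm1 (-0.039) and Wdr12 (0.35). Quantile normalization turned Npm1 (-0.046) and Wdr12 (0.044). The mean of probe sets turned Ebna1bp2 (0.10), Fbl (0.18), Noc4l (0.043), Nop10 (0.30), Polr1c (0.096) and Taf1d (-0.076). Leaving out shared probe sets turned Fbl (0.38), Noc4l (0.13), Nop10 (0.69), Polr1c (0.32), Taf1d (-0.090) and Wdr43 (0.23). With each array left out, the ranges of the genes that turned were Bop1 from -0.26 to 0.12, Ddx21 from -0.017 to 0.73, Dkc1 from -0.35 to 0.60, Ebna1bp2 from -0.49 to 0.055, Fbl from -0.22 to 0.11, Gar1 from -0.0022 to 0.61, Heatr1 from -0.13 to 0.47, Nop16 from -0.028 to 0.32, Nop58 from -0.30 to 1.24, Npm1 from -0.17 to 0.17, Polr1c from -0.28 to 0.0046, Rrn3 from -0.29 to 0.0061 and Wdr12 from -0.46 to 0.73.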
